A study of Homo sapiens with 26 samples.

Results

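Binding of the glucocorticoid receptor (GR) to chromatin was compared between cells with inhibited NF-κB and control cells, both given interleukin-1β (IL1B) together with budesonide, a synthetic glucocorticoid. All 10740 of the 10740 regions in the authors' table were included, each 400 bp long. At each region the difference was the log2 GR signal in cells carrying the inhibitor minus that in control cells. The cells were A549, an established human lung carcinoma line with features of alveolar epithelium, and GR was mapped by chromatin immunoprecipitation with sequencing (ChIP-seq). Control cells received an adenovirus that expresses green fluorescent protein (Ad-GFP), and inhibited cells received an adenovirus that carries IκBαΔN (Ad-IκBαΔN), which the authors' table writes as Ad-IκBα. Both groups then received 1 ng/ml IL1B and 300 nM budesonide for 1 h. Every group analysed here carried an adenovirus, and cells of each virus that were left untreated or given 300 nM budesonide alone for 1 h served as background. The RELA libraries of the study were not analysed here, so the inhibition of NF-κB is taken from the labels. Each group had 2 libraries from 2 independent experiments per the labels, but the deposited table holds 1 value per region and group, so no difference could be set against replicate error and no test was made. Regions were called lower or higher where the 2 groups differed at least 2-fold, a log2 difference of 1 or more in size. In cultures of this kind, GR signal lost from some cells and signal reduced in every cell cannot be told apart.

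NF-κB is a family of transcription factor dimers held in the cytoplasm by IκB proteins. IL1B leads to the phosphorylation and destruction of IκBα, after which NF-κB enters the nucleus and binds κB motifs near inflammatory genes. IκBα proteins that cannot be phosphorylated in this way keep NF-κB out of the nucleus and are used as inhibitors of the pathway. GR is a nuclear receptor that enters the nucleus on binding a glucocorticoid. It binds as a dimer to the glucocorticoid response element (GRE), a pair of inverted half-sites, and can also be brought to DNA next to or through other factors. In airway epithelium it induces genes such as FKBP5, PER1 and ZFP36 and lowers the output of many inflammatory genes.

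Regions lower in Ad-IκBαΔN were rich in κB motifs and regions higher in Ad-IκBαΔN were rich in GREs, so sequences of both kinds are shown first. The following 60-base windows come from regions whose GR signal was at least 4-fold lower in Ad-IκBαΔN, with matches to the κB motif in capitals. They are given 5′ to 3′ on the forward strand of hg38, named by the closest transcription start site (TSS).
UBE2E1, chr3:23748798-23748857: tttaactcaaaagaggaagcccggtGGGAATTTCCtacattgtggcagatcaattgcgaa
EIF5, chr14:103260687-103260746: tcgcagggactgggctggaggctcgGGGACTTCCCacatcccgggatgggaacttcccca
KLF4, chr9:107539552-107539611: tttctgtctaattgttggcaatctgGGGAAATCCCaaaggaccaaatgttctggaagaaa
CCL2, chr17:34252650-34252709: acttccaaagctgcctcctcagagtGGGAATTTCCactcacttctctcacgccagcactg
CXCL1, chr4:73869289-73869348: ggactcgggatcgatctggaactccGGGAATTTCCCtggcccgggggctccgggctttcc
RELB, chr19:45001308-45001367: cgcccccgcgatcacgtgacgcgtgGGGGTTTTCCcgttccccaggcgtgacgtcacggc

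The next 65-base windows come from regions whose GR signal was higher in Ad-IκBαΔN. Capitals mark a GRE, searched as the half-sites AGAACA and TGTTCT 3 bases apart with at most 2 mismatches in the 12 fixed bases.
PER1, chr17:8154435-8154499: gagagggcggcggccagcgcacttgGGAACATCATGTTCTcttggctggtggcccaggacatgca
LTBR, chr12:6376293-6376357: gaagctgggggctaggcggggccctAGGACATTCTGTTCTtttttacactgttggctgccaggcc
ERRFI1, chr1:8071050-8071114: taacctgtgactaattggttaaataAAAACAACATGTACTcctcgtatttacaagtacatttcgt
FKBP5, chr6:35722510-35722574: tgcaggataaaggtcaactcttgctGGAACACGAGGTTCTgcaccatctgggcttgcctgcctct
KLF9, chr9:70420100-70420164: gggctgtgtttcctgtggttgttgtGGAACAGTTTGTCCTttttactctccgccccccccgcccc

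All motifs were searched on both strands, and matches of different motifs were allowed to overlap. Matches of the κB motif could also overlap each other, so 1 stretch can count as several matches. The capitals shown at CXCL1, for example, hold 2. The 10-base κB motif was searched as GGGRNWYYCC without mismatches, where R is A or G, W is A or T, Y is C or T and N is any base. It was present in 21.3% of all regions and 3.90% of equally long windows 5 kb away, and the GRE in 14.7% and 2.63%. The log2 differences at the 6 κB regions shown were -5.25 for UBE2E1, -5.14 for EIF5, -3.65 for KLF4, -3.55 for CCL2, -2.92 for CXCL1 and -2.26 for RELB. Those at the 5 GRE regions were 1.97 for PER1, 1.66 for LTBR, 0.86 for ERRFI1, 0.75 for FKBP5 and 0.50 for KLF9, the last 3 within 2-fold. A match to a motif describes the sequence and does not show which protein was bound there.

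As deposited, GR signal over all regions was lower in Ad-IκBαΔN. The median signal was 45.7 in Ad-GFP against 23.6 in Ad-IκBαΔN, and the median log2 difference was -0.85, or 1.80-fold. The unit of the signal is not given, and from the numbers it was read as a mean coverage per base. At least 2-fold lower were 4998 regions (46.5%), 641 were at least 2-fold higher (5.97%) and 5101 lay between. The differences ran from -6.24 to 3.32 with quartiles of -1.90 and 0.09. At least 4-fold lower were 2407 regions, at least 8-fold lower 544 and at least 16-fold lower 74, while 61 were at least 4-fold higher. Signal in the 2 groups was only loosely related across regions, with a Pearson r of 0.17, given as a description over 10740 regions that share libraries. With budesonide alone the same 2 viruses had an r of 0.98.

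**Figure D1:**
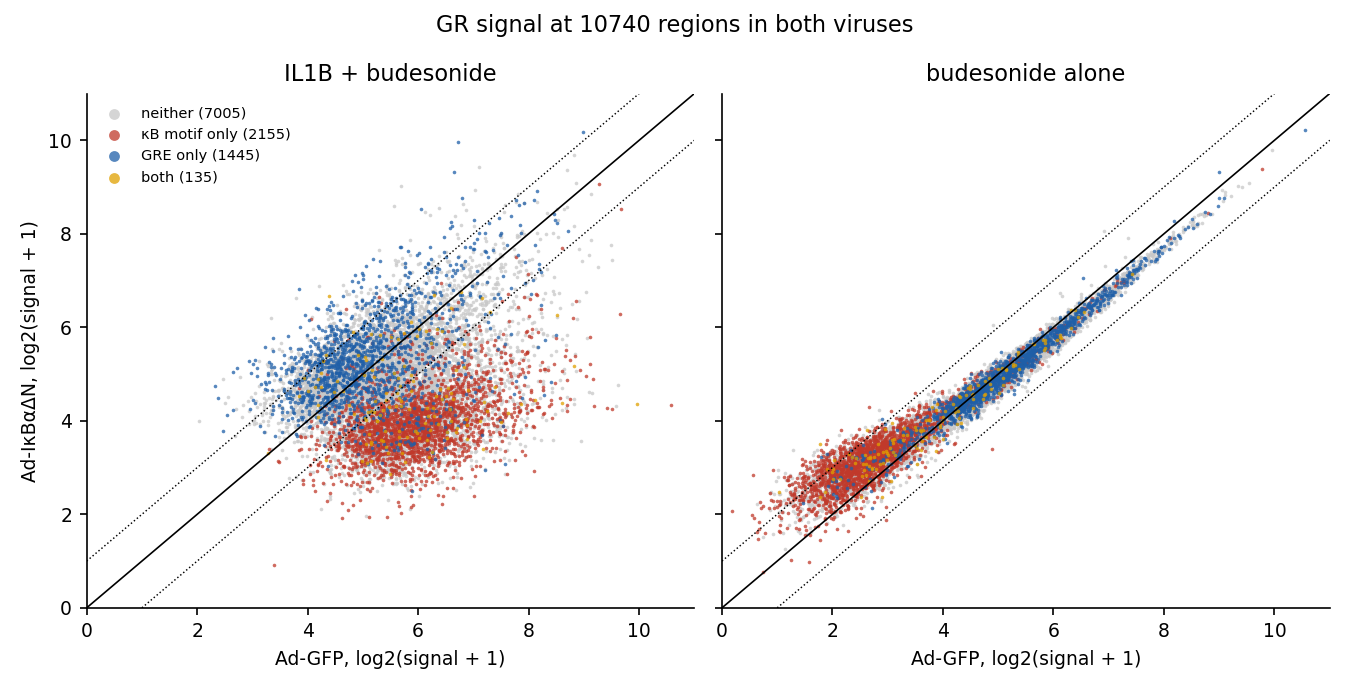
GR signal, log2(signal + 1), at 10740 regions in Ad-GFP (x axis) and Ad-IκBαΔN (y axis) with IL1B and budesonide (left) and with budesonide alone (right), 1 pooled value per region and group; the solid line marks equal signal and dotted lines 2-fold. Regions with a κB motif only (2155) lay mostly below the lower dotted line with IL1B, regions with a GRE only (1445) mostly around or above the solid line, and with budesonide alone the points lay near it (Pearson r 0.98).

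The place of 0 on this scale is uncertain. Signal times region width came out in whole multiples of 3 in Ad-GFP and of 1.5 in Ad-IκBαΔN, within 0.0001 steps, so the authors' scale differed between the 2 groups, and no source used here says what it was set to. Dividing these steps out moved the all-region median to 0.12 and gave 2407 lower regions (22.4%) and 2758 higher (25.7%). A common median gave 2619 lower (24.4%) and 2729 higher (25.4%) with a median of 0.08, and quantile normalization 2649 (24.7%) and 2693 (25.1%) with a median of 0.08. A common median of the authors' unchanged class gave 3857 lower (35.9%) and 1538 higher (14.3%) with a median of -0.38. The direction of the typical region is therefore not given by these values, and groups of regions are set against the all-region median. Every other scaling moved the differences up, so it could only take regions from those called lower and add to those called higher.

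The authors placed each region in a class named increasing, unchanged or decreasing. No source used here gives the rule behind these classes, which may have drawn on these same signals, so the class values are descriptive. The 4345 increasing regions had median signals of 63.6 in Ad-GFP against 15.0 in Ad-IκBαΔN, and 3828 of them were lower and 2 higher. Their median difference was -2.01, with quartiles of -2.56 and -1.47. The 3411 unchanged regions had a median of -0.45, with 968 lower (28.4%) and 227 higher (6.65%), beside 46.5% and 5.97% of all regions. The 2984 decreasing regions had signals of 27.7 and 30.5 and a median of 0.19, with 202 lower (6.77%) and 412 higher (13.8%). With the steps divided out the 3 medians were -1.01, 0.51 and 1.11, in the same order. The balance within classes then moved, to 186 lower and 1006 higher among unchanged regions, 34 and 1672 among decreasing ones and 2187 and 80 among increasing ones. Over all regions the shares were then 22.4% lower and 25.7% higher.

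**Figure D2:**
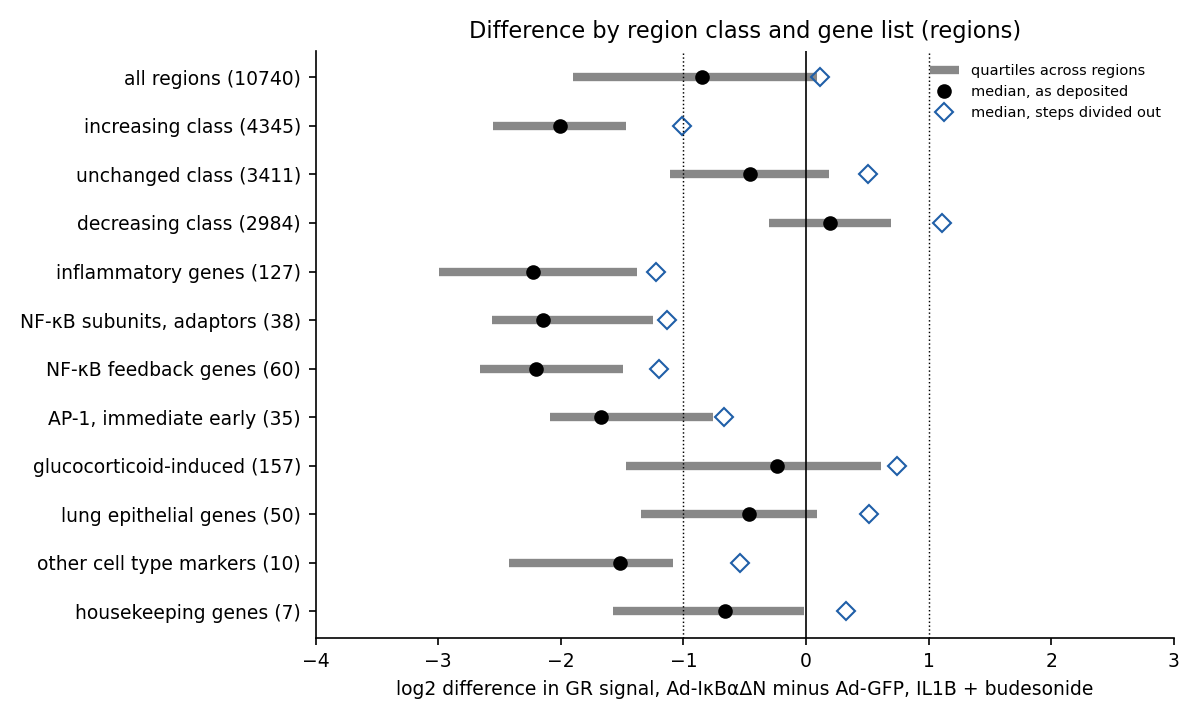
Log2 difference in GR signal, Ad-IκBαΔN minus Ad-GFP with IL1B and budesonide, by the authors' region class and by gene list, with the number of regions in brackets; filled circles are medians as deposited, grey bars run from the lower to the upper quartile of regions and are no error and open diamonds are medians with the steps divided out. Inflammatory, NF-κB subunit and feedback lists had medians from -2.23 to -2.14, all below the all-region median of -0.85, and the glucocorticoid-induced list had -0.23.

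Among the 53 genes of an inflammatory list, which holds chemokine, cytokine and adhesion genes and others such as complement, receptor, ephrin and enzyme genes, 43 had a region whose nearest TSS, within 100 kb, was theirs. Of their 127 regions 108 were at least 2-fold lower in Ad-IκBαΔN and 1 was higher, against 46.5% and 5.97% of all regions. The median was -2.23, or -1.38 relative to all regions. On the scale with the steps divided out 69 of the 127 were lower and 3 higher, against 22.4% and 25.7% of all regions. At the promoter of CXCL8, which encodes a neutrophil chemokine (chr4:73740278-73740677), signal was 387 in Ad-GFP against 17.7 in Ad-IκBαΔN, a log2 difference of -4.37. All 6 regions of CXCL8 were lower, from -4.37 to -1.24. Upstream of EFNA1, which encodes a ligand of EPH receptors (chr1:155124567-155124966), the signals were 768 and 18.8 (-5.28), the lowest difference of the list.

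The same held at other chemokine, adhesion and complement genes. The 4 regions of ICAM1, which encodes a leukocyte adhesion molecule, lay between -4.23 and -3.06. The strongest of them, 1.29 kb upstream of the TSS, had signals of 249 and 15.6. The 4 regions of CCL2, a monocyte chemokine gene, lay between -3.64 and -1.47, and the region holding the κB match shown above had signals of 387 and 32.3. An intron of C3, the central complement gene, had 309 and 22.6 (-3.72), and the region 9.84 kb upstream of TNFAIP2 had 337 and 20.9 (-3.95). The CXCL1 promoter had 162 and 20.6 (-2.92), and at IL32, a cytokine gene, the signals were 147 and 23.5 (-2.60). In each of these the Ad-GFP value was the highest of the 6 groups.

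CCL20, a chemokine gene for dendritic cells and lymphocytes, held regions of unlike behaviour. In an intron (chr2:227813547-227813946) signal was 415 in Ad-GFP against 17.5 in Ad-IκBαΔN (-4.49), and 9.28 kb upstream of the TSS it was 226 and 19.0 (-3.51). At the third, 12.7 kb downstream of the TSS, it was 217 and 100.3, a difference of -1.11 that was -0.11 with the steps divided out. That region had strong signal with budesonide alone, 177 in Ad-GFP, where the other two had 7.94 and 19.5. The members with the highest lead regions, the region with most signal over the 6 groups, were IL1R1, the IL1 receptor gene, at 0.87 (67.7 and 124) and NAMPT, an NAD synthesis gene, at 0.69 (126 and 205). Both regions also had strong signal with budesonide alone in Ad-GFP, at 161 and 169.

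Genes of NF-κB subunits, receptors and adaptors were lower to a like extent. Of 38 regions linked to 13 of the 17 genes, 29 were lower (76.3%) and 2 higher (5.26%), with a median of -2.14, where all regions had 46.5% and 5.97%. Dividing the steps out gave 21 lower and 4 higher of the 38, against 22.4% and 25.7% of all regions. In untranslated sequence of NFKB2, which encodes an NF-κB subunit (chr10:102394295-102394694), signal was 582 in Ad-GFP against 18.9 in Ad-IκBαΔN (-4.87), and the region held 3 κB matches. The promoter of NFKB1, another subunit gene, had 208 and 13.1 (-3.90), and that of RELB had 98.1 and 19.7 (-2.26). IRAK2, which encodes a kinase of IL1 receptor signalling, stood at -2.51 (251 and 43.3), with 7 of its 8 regions lower, and TRAF2, an adaptor gene, at -2.40 (135 and 24.7). TRAF1, a related adaptor gene, stood apart with 35.3 and 42.4, a difference of 0.26 that was 1.20 with the steps divided out. LTBR, the lymphotoxin-β receptor gene, had the highest lead region of the list, with 95.5 in Ad-GFP against 304 in Ad-IκBαΔN (1.66), at a GRE with 1 mismatch in an intron. The region also lies within SCNN1A, a sodium channel subunit gene of the glucocorticoid-induced list. It was counted here only because the TSS of LTBR is the closest.

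The third list with low values held genes of NF-κB feedback, most of them for products that restrain the pathway, together with cell survival genes such as CFLAR and BIRC3 and with LCN2. Of 60 regions linked to 16 of 20 genes, 50 were lower (83.3%) and 0 higher as deposited, with a median of -2.20. Over all regions the shares were 46.5% and 5.97%. With the steps divided out 37 of the 60 were lower and 4 higher, against 22.4% and 25.7% of all regions. TNFAIP3, which encodes a ubiquitin-editing enzyme, had 9 regions of which 8 were lower. The strongest, 55.6 kb upstream, had signals of 462 and 32.2 (-3.80), and the promoter region, with 3 κB matches, 153 and 16.8 (-3.11). All 8 regions of TNIP1, which encodes a partner of that enzyme, were lower, with a lead region at 168 and 19.1 (-3.07). NFKBIZ, an atypical IκB gene, stood at -3.14 (239 and 26.4), LCN2, an iron-siderophore-binding protein gene, at -2.70 (150 and 22.2), and IRAK3, which encodes an inhibitory relative of the IRAK kinases, at -2.64 (358 and 56.5).

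NFKBIA and BIRC3 each combined regions that were far lower with regions that were not. NFKBIA encodes IκBα, the protein from which the inhibitor derives. In its untranslated sequence (chr14:35403826-35404225) signal was 614 in Ad-GFP against 535 in Ad-IκBαΔN (-0.20), while 6 of its 9 regions were lower, the lowest 29.0 kb downstream of the TSS with 129 and 10.4 (-3.51). The virus itself carries an IκBα sequence, and untreated signals at the region in the gene were 14.5 in Ad-GFP against 9.04 in Ad-IκBαΔN. Untreated Ad-IκBαΔN values are uncertain, as given below, and whether the viral sequence affected the signal there was not tested. BIRC3 encodes a ubiquitin ligase that limits cell death. Its promoter, with 2 κB matches, had 324 and 32.8 (-3.27), its region 11.0 kb upstream had 213 and 89.4 (-1.24, or -0.25 with the steps divided out), and a region in an intron had 33.6 and 58.6 (0.79).

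**Figure D3:**
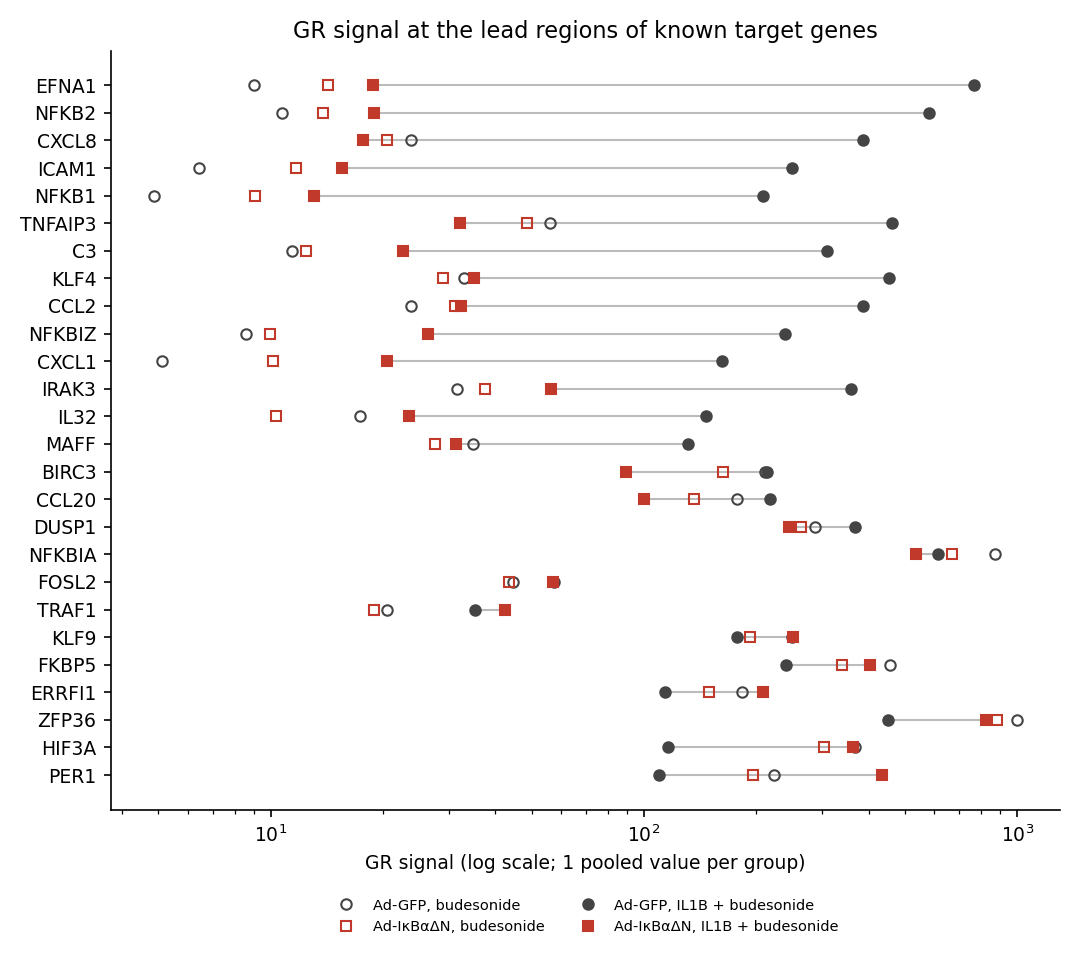
GR signal on a log scale at the lead region of 26 known target genes of NF-κB or GR, ordered by difference, in budesonide (open symbols) and IL1B plus budesonide (filled symbols), circles for Ad-GFP and squares for Ad-IκBαΔN, 1 pooled value each; grey lines join the 2 IL1B plus budesonide values. From EFNA1 (768 and 18.8) down to MAFF (131 and 31.4) the Ad-GFP circle with IL1B lay far to the right of the other 3 symbols, and at PER1 (109.9 and 435) it lay to their left.

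AP-1 and immediate early genes, transcription factor genes that respond quickly to stimuli, lay between these lists and the rest. Of 35 regions linked to 12 of 20 genes, 22 were lower (62.9%, against 46.5% of all regions) and 1 higher, with a median of -1.67. With the steps divided out 13 of the 35 were lower and 4 higher, where all regions had 22.4% and 25.7%. Upstream of KLF4, a zinc finger transcription factor gene, the signals were 453 and 35.1 (-3.65). MAFF and MAFK, which encode small MAF proteins, stood at -2.03 (131 and 31.4) and -1.67 (348 and 109). The lead regions of JUNB, MYC and BATF stood at -0.95 (71.8 and 36.7), 0.11 (125 and 135) and 0.69 (205 and 331). Each of these genes also had a lower region, at -2.80 for JUNB, -2.60 for MYC and -2.54 for BATF. FOSL2, a FOS family gene, was alike in this. Its region 1.26 kb upstream of the TSS had 57.4 and 57.0 (-0.01), and one 52.4 kb upstream had 188 and 16.0 (-3.48). Relative to all regions the list median was -0.82, and with 1 lead region per gene it was 0.09.

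Glucocorticoid-induced genes differed from all of these. Of 157 regions linked to 43 of 53 genes, 49 (31.2%) were lower and 15 (9.55%) higher, against 46.5% and 5.97% of all regions. With the steps divided out 17 were lower and 71 higher, against 22.4% and 25.7% of all regions. The median of -0.23 lay 0.61 above the all-region median, and 1.09 above it with 1 lead region per gene. TSC22D3, a leucine zipper gene induced by glucocorticoids, had no region linked to it. PER1, a circadian clock gene, was higher at both of its regions. At the stronger one (chr17:8154269-8154668), with a 1-mismatch GRE, signal was 109.9 in Ad-GFP against 435 in Ad-IκBαΔN, and at the other 29.0 and 125, differences of 1.97 and 2.06. HIF3A, which encodes a hypoxia-inducible factor subunit, had 116 and 364 (1.64). Both Ad-GFP values were below those with budesonide alone (224 at PER1 and 368 at HIF3A), and the Ad-IκBαΔN values were 196 and 304 with budesonide alone.

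Single regions of ANGPTL4 (1.73), ZBTB16 (1.33), PDK4 (1.26), CIDEC (1.22), ZFP36L2 (1.16), KLF9 (1.15) and TFCP2L1 (1.10) were also higher, as were 3 of the 8 regions of NNMT, up to 1.17, and 2 of the 7 of FGD4, up to 1.94.

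Lead regions of other well-known members lay within 2-fold as deposited. At FKBP5, the gene of a GR co-chaperone, the intronic lead region (chr6:35722487-35722886) had 240 and 404 (0.75), and the 5 regions ran from -0.77 to 0.75. ERRFI1, an inhibitor of EGF receptor signalling, stood at 0.86 (114 and 208) and KLF9, a transcription factor gene, at 0.50 (177 and 252). With the steps divided out these 3 passed 2-fold, at 1.74 for FKBP5, 1.84 for ERRFI1 and 1.49 for KLF9. DUSP1, a MAP kinase phosphatase gene, stood at -0.59 (367 and 244), IRS2, an insulin signalling gene, at -0.77 and MFSD2A, a lipid transporter gene, at -0.71. Their signs turned with the steps divided out, to 0.41, 0.21 and 0.26. MT2A, a metallothionein gene, was lower at its lead region (263 and 103, -1.34) and stood at 0.54 at the linked region nearest its TSS.

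Some glucocorticoid-induced genes had both lower regions and regions above 0. ZFP36 encodes a protein that destabilises inflammatory mRNAs. Its region 2.89 kb downstream of the TSS (chr19:39409536-39409935) had 451 in Ad-GFP against 825 in Ad-IκBαΔN (0.87), with no κB match. Its region 3.94 kb upstream (chr19:39402710-39403109), with 4 κB matches, had 522 and 30.0 (-4.08). With budesonide alone the Ad-GFP signals at these regions were 997 and 18.4. ERRFI1 ran from -2.44 to 0.86 over 6 regions, DUSP1 from -2.43 to 0.44 over 8 and KLF9 from -1.64 to 1.15 over 4, and at KLF9 the lowest region held 2 κB matches and a region at 0.97 held a 1-mismatch GRE.

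The last 3 lists served as background. Lung epithelial genes had a median of -0.47 over 50 regions, 17 of them lower (34.0%, against 46.5% of all regions) and 3 higher. With the steps divided out 7 of the 50 were lower and 14 higher, where all regions had 22.4% and 25.7%. GATA6 and FOXA1, endoderm transcription factor genes, stood at -1.74 (59.4 and 17.1) and -1.30 (31.7 and 12.3), and KRT7, a keratin gene of simple epithelia, at 1.63 (51.4 and 162). Housekeeping genes had a median of -0.66 over 7 regions, 3 of them lower and 0 higher. EEF1A1 stood at -1.78 and YWHAZ at -1.36. Markers of other cell types had a median of -1.52 over 10 regions, 8 of them lower and 1 higher. CSF1R, a macrophage receptor gene, was linked to a region in an intron of PDGFRB at -2.12 (51.8 and 11.1), VWF stood at -1.57 (61.2 and 20.0) and PECAM1 at 1.09 (19.0 and 41.6), both endothelial genes. Of these 10 regions 5 held a κB match, against 21.3% of all regions, and a low median was thus not limited to NF-κB pathway genes. ChIP signal near such markers does not measure their expression.

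κB motifs were concentrated at the lowest differences and GREs at the highest. Regions were divided into 10 deciles of 1074 from the lowest difference to the highest. A κB motif was present in 51.3% of decile 1 (Wilson 95% interval 48.3 to 54.3), 21.4% of decile 5 and 1.40% of decile 10 (0.85 to 2.29). A GRE was present in 4.47% of decile 1 (3.39 to 5.88), 9.31% of decile 5 and 42.2% of decile 10 (39.3 to 45.2). These intervals cover counting error only, and neighbouring regions are not independent. The AP-1 motif TGANTCA was most frequent in decile 6, at 39.3%, and was present in 30.8% of decile 1 and 20.3% of decile 10. After quantile normalization the κB shares of deciles 1 and 10 were 50.7% and 1.58%.

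**Figure D4:**
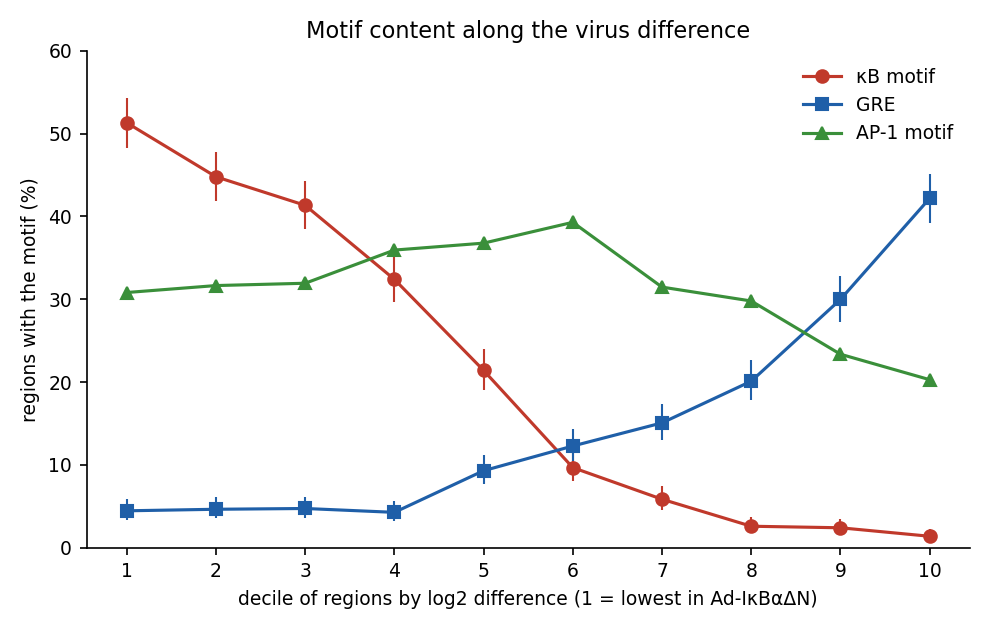
Percentage of regions with a κB motif, a GRE or an AP-1 motif (y axis) in deciles of regions ordered by the log2 difference, from the lowest in Ad-IκBαΔN (1) to the highest (10), 1074 regions each; bars on κB and GRE are Wilson 95% intervals. κB went from 51.3% to 1.40%, GRE from 4.47% to 42.2%, and AP-1 was highest, at 39.3%, in decile 6. The authors' selection of regions may shape these shares, which was not tested.

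Taken by motif, the 2290 regions with a κB match had a median difference of -1.99. Of these 86.9% were lower and 0.437% higher, while the 8450 regions without one had a median of -0.46 and 35.6% lower. The 1580 regions with a GRE had a median of 0.25, with 16.1% lower and 18.2% higher, against -1.08 in regions without one. Lower regions with a GRE included the lead regions of C3 and IRAK3, without a κB match, and that of KLF4, with a κB match. In the 135 regions with both, the median was -1.27, between -2.02 for κB alone and 0.34 for GRE alone. The 7005 regions with neither had a median of -0.65, and 2836 of them were lower, so a lower signal was also found at many regions without these letters. The CXCL8 promoter, the strongest EFNA1 region and the strongest ICAM1 region were among the regions with neither. Only exact matches to the κB pattern were counted, so such regions may hold κB sites that depart from it.

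Closeness to the GRE ordered the differences. The 44 regions with no mismatch had a median of 0.98 and 22 were higher. Regions with 1, 2 and 3 mismatches had medians of 0.42, 0.16 and -0.48, and those with 4 or more had -1.35. A GRE within 20 bp of the region centre went with a median of 0.51, and one 100 to 200 bp away with -0.54. For regions with a single κB match the medians were -2.05 within 20 bp of the centre and -1.57 at 100 to 200 bp. Of the 20 forms of the κB motif found in 50 or more regions, GGGAAACCCC had the lowest median, -2.27 over 107 regions, and GGGAGTTCCC the highest, -1.56 over 65. The most frequent form, GGGAAATTCC, stood at -2.18 over 319 regions, 302 of them lower.

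**Figure D5:**
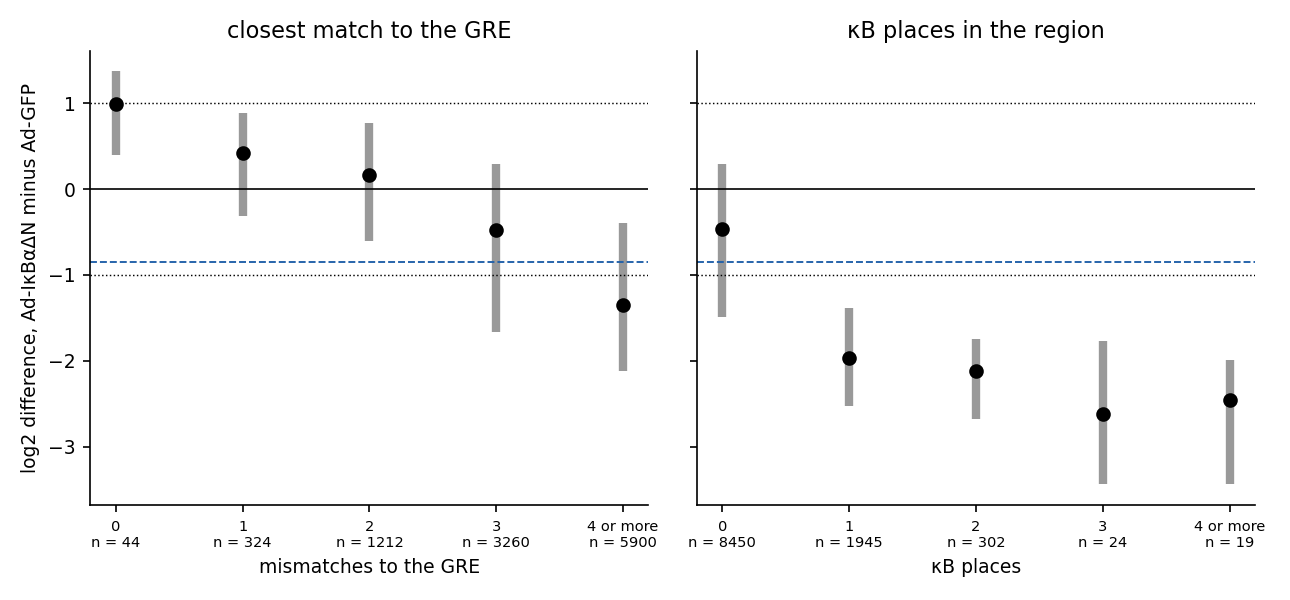
Median log2 difference (points) and quartiles of regions (bars, which are no error), Ad-IκBαΔN minus Ad-GFP, by mismatches of the closest GRE match (left) and by number of κB places in the region (right), a place being a stretch of overlapping matches; the dashed line is the all-region median of -0.85. Medians went from 0.98 with 0 GRE mismatches to -1.35 with 4 or more, and from -0.46 with 0 κB places to -2.62 with 3 and -2.46 with 4 or more.

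The difference varied with GR signal with budesonide alone. Ordered by Ad-GFP signal with budesonide, decile 1 had a median difference of -2.14 with 94.4% lower, decile 4 -1.64, decile 5 -0.28 and decile 10 0.04 with 13.2% lower. A κB motif was present in 29.3% of decile 4 and 9.78% of decile 5. The log2 signal of Ad-IκBαΔN cells given IL1B and budesonide had a Pearson r of 0.90 across regions with that of the same virus given budesonide alone. In Ad-GFP the same r was 0.07. Both are descriptions over the 10740 regions, which the authors selected. Decile 1 had median Ad-GFP signals of 2.75 with budesonide and 46.8 with IL1B and budesonide. Regions so weak with budesonide may have entered the table through the latter signal, which is part of the difference. The deciles and the r values may follow from that selection, which was not tested, and they are no independent support.

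Without IL1B the 2 viruses differed far less. With budesonide alone 2 regions were lower (0.0186%) and 432 higher (4.02%), with a median difference of 0.02 and an SD across regions of 0.41. In untreated cells 298 were lower (2.77%) and 774 higher (7.21%), with a median of 0.04 and an SD of 0.61. The SD of the difference across regions with IL1B and budesonide was 1.30. Untreated Ad-IκBαΔN values were unlike those of every other group, as they fell on no common step. The SD of their log2 signal across regions was 0.30, against 0.63 in untreated Ad-GFP, and their lowest signal was 1.86, against 0. Whether they were processed in another way is not given, so the untreated virus differences are uncertain. Subtracting each region's virus difference with budesonide alone from that with IL1B and budesonide left 5086 regions lower (47.4%) and 857 higher (7.98%). By list, the median of this double difference was -2.52 for inflammatory genes, -2.46 for NF-κB subunits and adaptors, -2.43 for feedback genes, -1.73 for AP-1 genes and -0.09 for glucocorticoid-induced genes, against -0.84 over all regions.

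Promoter regions were lower than distal ones. The 404 regions within 1 kb of a TSS had a median of -1.51, and 245 (60.6%) were lower, against 46.5% of all regions. A κB match was present in 39.9% of these 404, against 21.3% of all regions. Promoter regions with a κB match had a median of -2.11 and those without -0.81, beside -1.99 and -0.46 for regions farther away. Introns (5242 regions, median -0.81) and intergenic sequence (5151, -0.86) had like medians. Of 4261 genes with a linked region, 2460 had a lower one, 430 a higher one and 94 both. The genes with most lower regions were TCIM, 11 of 16, LIF, a cytokine gene of the IL6 family, 10 of 10, SMAD3, a TGF-β signalling gene, 10 of 13, and TNS3, a focal adhesion gene, 9 of 12.

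Few neighbouring regions differed in opposite ways, in a set where 46.5% of all regions were lower and only 5.97% higher. How many opposed pairs unrelated regions would give was not tested. Of 2495 adjacent pairs of regions under 13 kb apart, 789 had both regions lower, 17 both higher, 718 both within 2-fold and 45 had 1 of each, and the differences of the 2 regions had a Pearson r of 0.40. Of the 45, the pair with the widest gap lay 4.85 kb apart on chromosome 20, 115 kb and 109.98 kb upstream of PTPN1, a tyrosine phosphatase gene. One of its regions (chr20:50395285-50395684) had 136 in Ad-GFP against 685 in Ad-IκBαΔN, and the other (chr20:50400138-50400537) 299.7 and 37.3, differences of 2.33 and -2.97. A second pair lay 10.4 kb apart in LTBR. There the GRE region described above, which lies within both LTBR and SCNN1A, stood at 1.66. A region linked to SCNN1A by its closest TSS had 165 and 13.7 (-3.49).

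The lowest and the highest difference of all lay in tandem repeats. The lowest of all, 20.5 kb from the TSS of SERPINA2 (chr14:94345952-94346351), had 1520.4 in Ad-GFP against 19.1 in Ad-IκBαΔN (-6.24), and the next, 1.65 kb upstream of FSTL3, which encodes a follistatin-like binder of activin, had 989.7 and 19.6 (-5.59). The highest of all lay in an intron of COL4A2, 80.1 kb from the TSS of RAB20 (chr13:110481389-110481788), with 50.8 and 515 (3.32). Windows of these regions and of the region at CDC123 (98.7 and 643, 2.69) show the repeats on the forward strand of hg38. Capitals mark κB matches in the first 2 and places within 3 mismatches of the GRE in the last 2.
SERPINA2, chr14:94345972-94346210: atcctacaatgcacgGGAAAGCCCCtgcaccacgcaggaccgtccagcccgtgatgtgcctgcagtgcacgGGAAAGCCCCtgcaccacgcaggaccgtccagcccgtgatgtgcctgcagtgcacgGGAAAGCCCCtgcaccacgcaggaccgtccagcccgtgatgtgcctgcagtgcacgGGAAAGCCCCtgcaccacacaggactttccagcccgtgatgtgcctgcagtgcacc
FSTL3, chr19:674571-674810: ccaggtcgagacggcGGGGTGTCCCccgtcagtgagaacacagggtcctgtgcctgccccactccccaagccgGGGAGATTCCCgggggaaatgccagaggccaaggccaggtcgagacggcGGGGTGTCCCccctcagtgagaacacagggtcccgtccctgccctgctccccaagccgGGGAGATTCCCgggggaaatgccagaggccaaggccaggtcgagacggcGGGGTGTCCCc
RAB20, chr13:110481389-110481628: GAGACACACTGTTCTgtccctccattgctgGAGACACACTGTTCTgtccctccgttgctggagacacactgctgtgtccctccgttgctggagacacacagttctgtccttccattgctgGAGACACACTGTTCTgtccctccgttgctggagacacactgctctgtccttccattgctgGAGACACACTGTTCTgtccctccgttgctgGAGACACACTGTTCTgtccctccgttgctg
CDC123, chr10:12247273-12247512: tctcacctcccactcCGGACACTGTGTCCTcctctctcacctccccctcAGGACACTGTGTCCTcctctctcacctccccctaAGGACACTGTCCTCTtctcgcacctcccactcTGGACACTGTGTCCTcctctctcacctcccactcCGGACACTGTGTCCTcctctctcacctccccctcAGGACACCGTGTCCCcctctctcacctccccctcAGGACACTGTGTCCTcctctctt

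The SERPINA2 window repeats every 56 bases and the FSTL3 window every 107, and each region held 7 κB places. The RAB20 and CDC123 regions held no κB match and 8 GRE-like places each. Repeats were sought after these windows had been seen, as regions at least 70% identical to themselves when moved by 15 to 150 bases, and 41 regions (0.382%) met this. They made up 3 of the 10 lowest differences and 3 of the 10 highest, the regions that had prompted the search, and 4 of the 100 lowest and 4 of the 100 highest. The 10 of the 41 with a κB match were all lower, with a median of -2.74, where 86.9% of all regions with a match were lower. The 31 without ran from -4.84 to 3.32, with 11 lower (35.5%) and 8 higher (25.8%). Among all regions without a κB match 35.6% were lower and 7.47% higher. How reads were placed among repeat copies, and how many copies A549 carries, was not tested. Among the other extremes, UBE2E1 (727 and 18.1), EIF5 (679 and 18.3) and KIFC3 (565 and 23.2) stood at -5.25, -5.14 and -4.55. SLC12A7, a tandem repeat without a κB match, stood at -4.84 (784 and 26.4). At the upper end were DECR1 at 3.24 (105 and 1001), C17orf80 at 3.04 (46.0 and 386), NKX1-1 at 2.87 (9.06 and 72.4), also a repeat, and CNST at 2.68 (17.4 and 117).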

How the data were processed

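GR was immunoprecipitated in 12 of the 26 libraries the labels list, and those for RELA or input were not used here. The authors deposited 1 log2 binding intensity for each region in each group, pooled over 2 libraries. From the numbers it was read as log2(signal + 1), which understates differences at low signal. Tools in the submitters' processing notes were Bowtie2 2.4.4, MACS2 2.2.7.1, DiffBind 3.2, SAMtools, FastQC 0.10.1 and bcl2fastq, on GRCh38 (hg38). The tool behind the intensities, the pooling and the scale are not given in the sources used here. Library depth is unknown.

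The planned test, limma on values per library, was not possible, so a 2-fold difference was counted in its place. The counting was tested on simulated data. All 10740 regions fitted the hg38 chromosome lengths. Where a protein-coding TSS of GENCODE 44 lay within 100 kb, the region was linked to the closest (7574 regions), which does not show that the region acts on that gene. Named were a list of target genes and the lowest and highest lead regions of 8 gene lists. The 6 lowest and 6 highest regions outside the lists were also named, 1 per gene. Lead regions picked by rank in the inflammatory, NF-κB subunit, feedback, glucocorticoid-induced and AP-1 lists had mean signal at or above the all-region median. So did the regions outside the lists. Genes given by all their regions, opposed pairs and tandem repeats were chosen after their values were seen. The members and lists were chosen with earlier results of these data known. Alternatives were other scalings, folds, offsets, links and motif limits. Python 3.11.15, numpy 2.4.6, pandas 2.3.3 and matplotlib 3.10.9 were used.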

Additional observations from a re-analysis of the deposited data

Results flagged for a closer look

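At 4 of the 64 named regions the virus difference had the opposite sign, past 2-fold both ways, in a treatment without IL1B. All 4 were among the 36 named regions lower with IL1B and budesonide. In the whole table, budesonide alone gave 432 higher regions (4.02%), of which 357 belonged to the 4345 increasing ones. Untreated cells gave 774 (7.21%). Higher values without IL1B were thus not peculiar to these 4, and whether named regions held more of them was not tested. Each treatment has 1 pooled value per virus, so the difference between treatments was not tested. The region linked to MAFF stood at -2.03 with IL1B and budesonide and at 1.63 in untreated cells, where the signals were 1.42 in Ad-GFP against 6.49 in Ad-IκBαΔN. Untreated Ad-IκBαΔN values had a narrower spread than those of Ad-GFP and fell on no step, as given above. The RELB promoter stood at -2.26 with IL1B and budesonide and at 1.15 with budesonide alone (7.36 and 17.5). The region linked to CSF1R, in an intron of PDGFRB, stood at -2.12 and 1.22 (2.25 and 6.58 with budesonide alone). The tandem repeat in SLC12A7 stood at -4.84 and 1.38 (6.20 and 17.7 with budesonide alone). Every signal given here for cells without IL1B was 17.7 or lower.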

How the results depend on the processing

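The counts depended on both the scale of the 2 groups and the fold required. Regions lower with IL1B and budesonide, 4998 as deposited, were 2619 with a common median, 2649 after quantile normalization, 2407 with the steps divided out, 2407 at 4-fold and 2757 without the 25% of regions of lowest mean signal. Regions higher, 641 as deposited, were 2729, 2693 and 2758 under the first 3 of these, 1538 with a common median of the unchanged class, 1412 at 1.5-fold and 61 at 4-fold. For the double difference, lower regions were 3179 after quantile normalization and 3284 with the steps divided out, and higher ones 3011, 3305, 1669 and 3062 with a common median, quantile normalization, the unchanged class and the steps. Applied to the viruses without IL1B, quantile normalization, chosen there after seeing the data, gave 29 lower and 23 higher with budesonide and 381 higher untreated. Allowing at most 1 mismatch, 12.4% of decile 10 held a GRE, against 0.56% of decile 1. Of the list medians relative to all regions, that of AP-1 genes turned to 0.093 with 1 lead region per gene, and at the linked region nearest the TSS MT2A turned to 0.54, FKBP5 to -0.77 and NAMPT to -1.92. With the steps divided out, values within 2-fold turned at NFKBIA (0.80), ZC3H12A (0.77), FOSL2 (0.95), DUSP1 (0.41), IRS2 (0.21), MFSD2A (0.26) and JUNB (0.03). Of 36 named regions lower as deposited 27 were lower in every scaling. No region near markers of other cell types lay within 10 kb, so that link gave no value for them. No paired analysis was possible because the table holds 1 pooled value per group, and leaving out a replicate was not run for the same reason.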
